A study of Mus musculus with 4 samples.

Results

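The cytosolic ribosomal protein genes were followed across the cell types and genotypes of mouse duodenal crypt. They were chosen by symbol. A gene was taken when its symbol began with Rpl or Rps and a digit, or was Rplp0, Rplp1, Rplp2 or Rpsa, while the Rps6k kinases and symbols with -ps, the mark of a pseudogene, were left out. This gave 86 of the 31053 genes counted, of which 33 encode proteins of the small subunit and 52 proteins of the large subunit or their paralogs. The remaining gene, Rps19bp1, encodes a protein that binds the small-subunit protein S19 and is no part of the ribosome. Fau, which encodes a ribosomal protein fused to a ubiquitin-like protein, falls outside the symbols and was used as a companion.

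A cytosolic ribosome joins a small subunit, which reads the messenger RNA, to a large subunit, which links the amino acids. Each ribosomal protein is needed in about equal number, and the messenger RNAs of nearly all of them begin with a C followed by a run of pyrimidines, through which the growth-controlling kinase mTOR acts on their translation. The genes are known for high transcription in growing and dividing cells, and Myc, a target of Wnt signalling in the intestinal crypt, is a known driver of ribosome production. Intestinal stem cells divide often, whereas mature goblet and Paneth cells no longer divide and give much of their RNA to a few secreted products.

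Single-cell RNA libraries had been made from cells sorted for the TOM reporter (TOM+) and for exclusion of DAPI, a dye that enters dead cells. WT stands for Atoh1CreER-T2;R26RTom mice, and APC-KO for mice labelled Atoh1Cre;Apcfl/fl;R26RTom, which the series text names Atoh1CreER-T2; Apcfl/fl; R26RTom. Atoh1 drives the recombinase in secretory cells and their precursors, R26RTom is the reporter it switches on, and the floxed Apc gene encodes a brake on Wnt signalling. Both genotypes received tamoxifen (1 mg/mL) in 2 intraperitoneal doses 24 h apart, and crypt cells were taken 12 h after the last. Each genotype has 2 libraries, and no age, animal or batch is given, so that the p-values measure the spread between these libraries, which may be technical. The cell type names below (ISC, ENTERO-PRO, SEC-PRO, GP, GOBLET-PRE, GOBLET, PANETH-PRE, PANETH, EEC-PRE, NON-EC, EC and TUFT) are those of the authors' deposited tables, and PANETH-LINEAGE is the sum of PANETH and PANETH-PRE. Where 4 values stand in a row, they are those of WT replicate 1, WT replicate 2, APC-KO replicate 1 and APC-KO replicate 2, in this order.

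The libraries were unequal. The tables kept 4814, 3821, 356 and 6243 cells with 24677647, 21003179, 3009636 and 27285079 UMIs, where a UMI is the tag that marks 1 captured RNA molecule. APC-KO replicate 1 therefore gave between 5 and 184 cells per type, and 13 ISC, 16 PANETH and 11 ENTERO-PRO cells. Any pair of libraries shared between 1 and 8 cell barcodes. Among the 41 members with at most 450 coding bases and at least 20 CPM, WT replicate 2 was the lowest library for 39 and APC-KO replicate 2 the highest for 36. CPM is the count of UMIs scaled to 1000000 UMIs of the summed cells. The summed CPM of the marker genes of GOBLET, PANETH, EC, NON-EC, EEC-PRE, TUFT and ISC was for each list highest in the type of that name. The sum of the secretory progenitor markers was highest in GP, with SEC-PRO second. That of the immune markers was highest in ENTERO-PRO, at 1339 CPM, with ISC second. Apc itself had 87.2, 77.9, 88.1 and 88.1 CPM, but these are reads from the 3' end and where the floxed exons lie is not stated, so this checks nothing.

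Of the 86 members, 83 had a mean of at least 20 CPM and entered the tests, and 73 had at least 1000 CPM. The 3 others are paralogs known for expression outside the intestine. Rpl39l and Rpl10l had 0 UMIs of 75975541 and Rpl3l had 2, all of them in APC-KO replicate 2. A count of 0 allows up to 0.0395 CPM at 3 counts, and this covers counting error only. The members lie on 19 chromosomes. Their coding sequences are short, with a median of 453 bases (75 to 1257, stop codon not counted), and their transcripts had a median of 774.5 bases against 2771 for other genes of at least 20 CPM.

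The share of all UMIs that fell on the members was highest in stem cells and lowest in goblet cells. ISC gave 24.8%, 23.5%, 29.8% and 28.6%, or 26.7% ± 2.99 (SD, n = 4 libraries). GOBLET gave 4.15%, 2.86%, 3.35% and 5.65%, and PANETH 4.6%, 4.04%, 7.70% and 11.5%. In these summed UMIs, ISC lay above every other type in each library, while GOBLET and PANETH held the last and the last but 1 rank in 4 of 4 libraries. The median cell gave another rank to PANETH in APC-KO, at 19.9% and 13.1%, above EC (11.2% and 11.2%) and NON-EC. In APC-KO replicate 1 the median cell held 26.5% in EEC-PRE and 26.4% in ISC. In absolute terms an ISC cell held 1511 UMIs on members, a PANETH cell 676, an EC cell 486 and a GOBLET cell 204, as means of the libraries.

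Precursors stood between these ends and above their mature types. EEC-PRE, the enteroendocrine precursors, came second in 4 of 4 libraries with 23.1%, 21.4%, 28.2% and 26.4%. GP (21.6%), PANETH-PRE (21.4%), SEC-PRO (21.0%), TUFT (19.6%) and ENTERO-PRO (18.5%, means of 4 libraries) followed, and their order changed from library to library. GOBLET-PRE gave 14.2%, 13.4%, 17.1% and 17.1%, above NON-EC (12.8%) and EC (12.4%) in 4 of 4 libraries. The last 2, the mature enteroendocrine types, did not keep an order between them. The share fell from PANETH-PRE (21.4%) to PANETH (6.96%), from GOBLET-PRE (15.4%) to GOBLET (4.00%) and from EEC-PRE (24.7%) to EC, each in 4 of 4 libraries. Spearman's rho of the order of the 12 types between any 2 libraries lay between 0.88 and 0.99, as a description of 12 points.

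**Figure D1:**
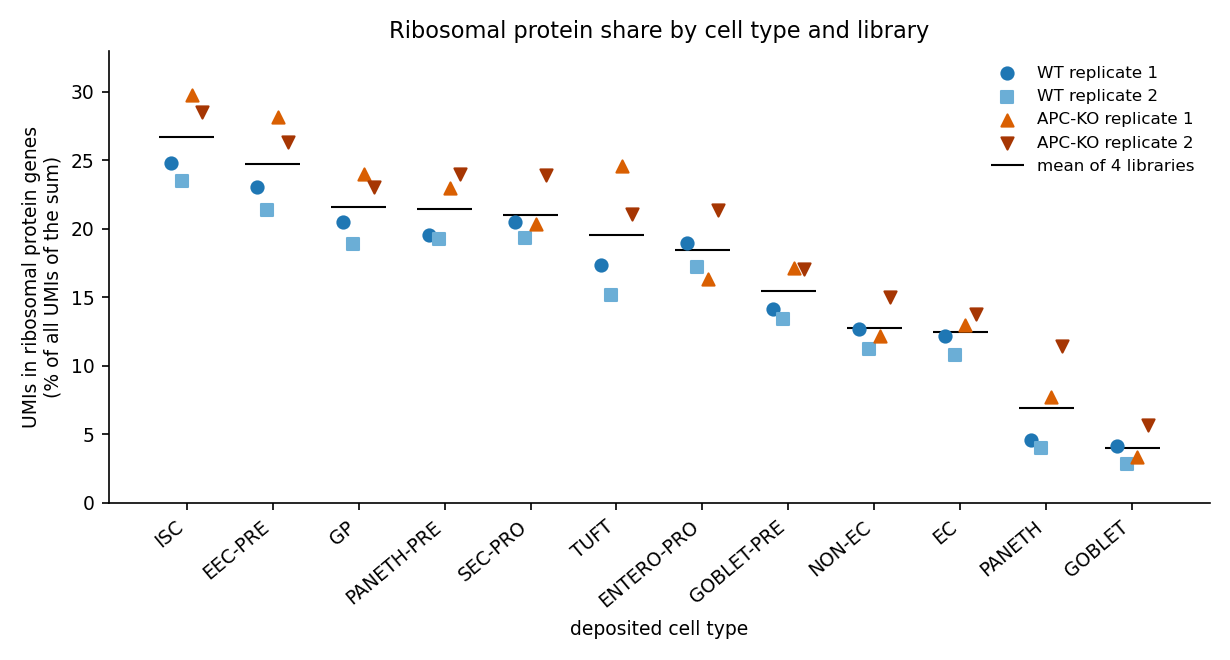
Percent of all UMIs of a cell type that fell on the ribosomal protein genes (vertical axis), for the 12 types in order of their mean, with 1 point per library and a bar at the mean of the 4 libraries. ISC lie at 23.5% to 29.8%, and GOBLET at 2.86% to 5.65%.

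Markers of the mature types, secreted products among them, were high in the types of low share. The 8 goblet markers had a mean of 412830 CPM in GOBLET and the 8 Paneth markers 347875 CPM in PANETH. Defensins took 52.2%, 46.8%, 46.4% and 33.1% of the PANETH UMIs. With mitochondrially encoded and defensin genes left out of the total, PANETH of WT gave 8.85%, beside 4.32% with them, and ISC of WT 25.7% (means of 2). The part of these genes in the low share was not tested. In barcodes with 1 to 50 UMIs, which hold free RNA, the members took 16.7%, 15.4%, 15.4% and 19.3%, above the share in GOBLET. Subtracting that profile at 5% of each sum changed the GOBLET mean of WT from 3.51% to 2.84%.

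Other parts of the protein-making apparatus were measured in the same sums. The 45 genes of ribosome biogenesis, which make and process ribosomal RNA and assemble the subunits, took 0.777% of the UMIs in ISC and 0.0715% in GOBLET. Initiation and elongation factors and their companions (38 genes) ran from 3.74% in EEC-PRE to 0.901% in GOBLET. Spearman's rho with the members' share was 0.92 for these factors, 0.88 for biogenesis, 0.68 for the 78 mitochondrial ribosomal proteins and 0.69 for proliferation markers, and 0.06 for the median UMIs per cell. These are descriptions over 12 types that share libraries.

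ISC were then compared with GOBLET, PANETH and EC gene by gene, in 1 edgeR fit of 45 sums with the library as a block (10873 genes, threshold of 0.05 after Benjamini-Hochberg adjustment). The types had been named by the authors from these same cells, so that the contrasts are not independent of the genes used for naming. Against GOBLET, 82 of 83 members were higher in ISC and 0 were lower, while 34.5% of all genes tested were higher and 29.5% lower. The median log2 fold change of the members was 2.01 against 0.18 over all genes. Against PANETH, 77 were higher and 1 lower (background 26.4% and 24.6%), with a median of 0.72 against 0.04. Against EC, 83 were higher and 0 lower (background 31.4% and 35.3%), with a median of 1.30 against -0.05.

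Scaling by library size alone moved the median of all genes to 0.99, 1.34 and -0.32 in these contrasts and that of the members to 2.80, 2.04 and 1.07. The split of all called genes, 3749 higher and 3207 lower against GOBLET, became 6166 and 1554, the 2868 and 2672 against PANETH became 8029 and 634, and the 3411 and 3840 against EC became 2452 and 4607. An adjustment for transcript length, which was chosen once the values were known, lowered the median of the members to 0.36 against PANETH, with 53 higher and 5 lower, and to 0.62 against EC, with 69 higher and 0 lower. Spearman's rho of the members' log2 fold change with coding length was 0.43, 0.38 and 0.26 in the 3 contrasts before it and 0.51, 0.55 and 0.50 after it. Without WT replicate 1, 43 members remained past the threshold against PANETH in place of 78.

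**Figure D2:**
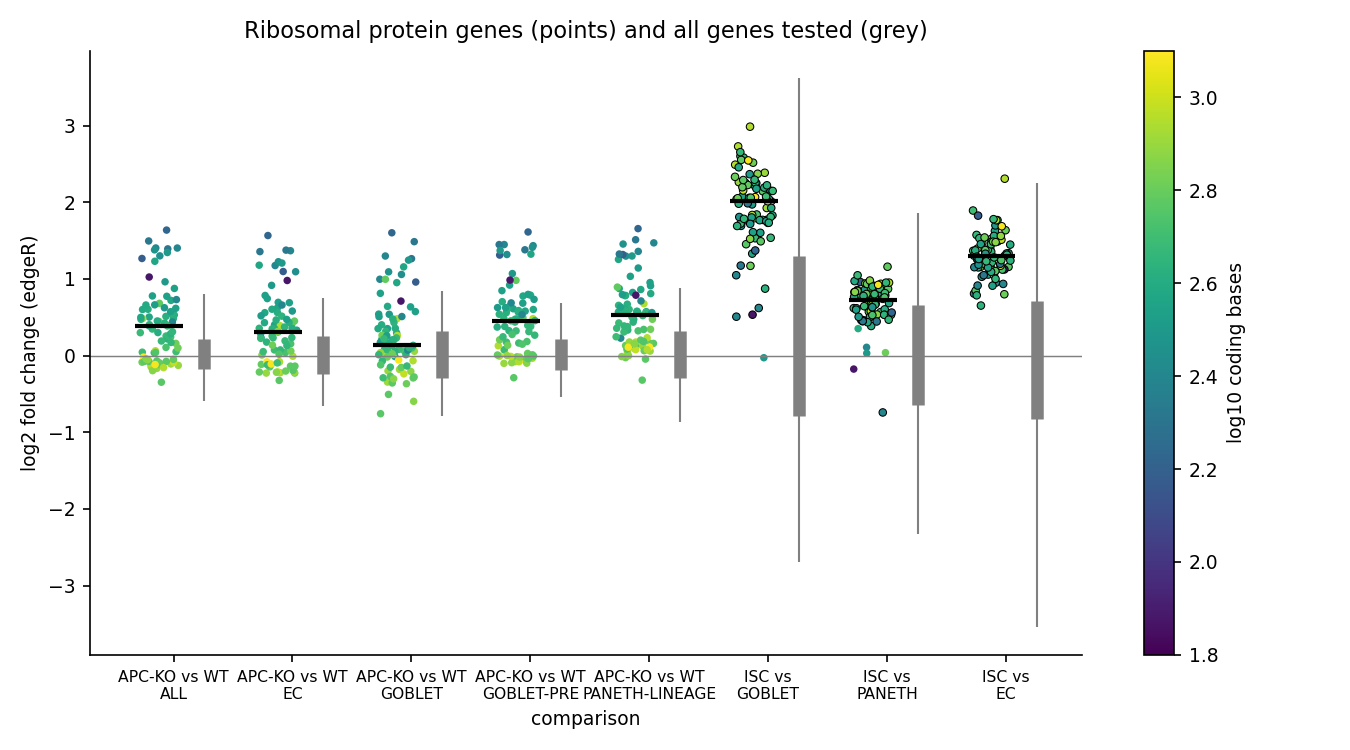
Log2 fold changes of the 83 tested ribosomal protein genes (points, coloured by coding length, outlined in black where past the threshold, bar at their median) and of all genes tested (thick grey bar for the quartiles, thin line for the central 90%) in the 5 genotype comparisons, APC-KO against WT, and the 3 comparisons of ISC with another type. The members lie around medians of 2.01, 0.72 and 1.30 in the type comparisons, and between 0.13 and 0.53 in the genotype comparisons.

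Proteins of the small subunit led the contrast with goblet cells. Rps2, a protein near the entry of the messenger RNA channel (chromosome 17), had 5363, 6781, 5554 and 4537 CPM in ISC and 424, 362, 328 and 489 CPM in GOBLET. The groups of libraries lie far apart, and the log2 fold change was 2.99 ± 0.17 (SE, edgeR adjusted p = 4.29e-23). Rpsa, which also goes by the name of laminin receptor, had 4688, 5727, 4974 and 5114 CPM in ISC and 430, 359, 323 and 692 CPM in GOBLET (log2 fold change 2.73 ± 0.16, edgeR adjusted p = 2.85e-22). Rps18 (2.65), Rpl12 (2.60) and Rps19 (2.58) followed, as log2 fold changes. Rps2 (2.31 ± 0.16), Rpl12 (1.89), Rpl39 (1.83), Rps18 (1.78) and Rps19 (1.77) also led the contrast with EC. Against PANETH the order was another, with Rpl13a (1.16 ± 0.16), Rps3 (0.98), Rpl22 (0.97) and Rpl39 (0.96) among the 5 largest.

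The contrasts were also counted by subunit and role. Of all genes tested, 34.5%, 26.4% and 31.4% were higher in ISC than in GOBLET, PANETH and EC. The counts below lie near those of the whole family given above and set no role apart from it. All 33 small-subunit genes and 48 of 49 tested large-subunit genes were higher in ISC than in GOBLET, with medians of 2.15 and 1.84. Against PANETH the counts were 30 of 33 and 46 of 49 (medians 0.77 and 0.68), and against EC all 33 and all 49 (1.33 and 1.30). The 3 proteins of the P stalk, which recruits the elongation factors (Rplp0, Rplp1 and Rplp2), were higher in each contrast, with medians of 2.15, 0.63 and 1.45. Rpl5 and Rpl11, which carry 5S ribosomal RNA and can bind Mdm2, the brake on p53, were higher in each, with medians of 2.17, 0.74 and 1.2. All 8 proteins listed for the exit tunnel, in its wall or around its opening, were higher in each (medians 2.04, 0.60 and 1.29). Of 10 members known as Diamond-Blackfan anaemia genes, among them Rps19, 10, 9 and 10 were higher, with medians of 2.02, 0.80 and 1.30.

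Genes around the family, from lists drawn up for the same pathway, moved as follows. The background over all genes tested was 34.5%, 26.4% and 31.4% higher in ISC against GOBLET, PANETH and EC, and 29.5%, 24.6% and 35.3% lower. Of the 45 biogenesis genes, 44 were higher in ISC than in GOBLET and 0 lower (median 2.57), 31 and 1 against PANETH (0.70), and 41 and 0 against EC (1.41). Npm1, a nucleolar chaperone of ribosome assembly, was 3.22 ± 0.16 higher than in GOBLET on the log2 scale, and Myc 4.18 ± 0.46. Of the 38 translation genes 33, 23 and 30 were higher and 2, 9 and 1 lower. Of the 77 tested mitochondrial ribosomal proteins 66, 69 and 74 were higher and 1, 0 and 0 lower (medians 1.26, 0.82 and 1.15). The 20 tested regulators, with Myc and the mTOR pathway, were mixed, at 7, 3 and 5 higher and 6, 5 and 8 lower. Of the 16 tested p53 response genes 5, 2 and 2 were higher and 7, 10 and 9 lower. Among the latter, Cdkn1a, an inhibitor of the cell cycle, was lower in ISC than in GOBLET by a log2 fold change of -4.83.

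A few members did not share the fall. Rpl36al, a paralog of Rpl36a that encodes a nearly identical protein, was level between ISC and GOBLET in the scaled fit (log2 fold change -0.03 ± 0.13, edgeR adjusted p = 0.866), although scaling by library size alone gave 0.77. It had 432, 328, 792 and 449 CPM in ISC, 281, 207, 382 and 251 CPM in GOBLET and 138, 109, 282 and 231 CPM in PANETH. Rps27l, a paralog of Rps27 known as a p53 target, was the only member lower in ISC than in PANETH (-0.74 ± 0.14, edgeR adjusted p = 6.65e-06), and this direction flips to 0.61 with scaling by library size alone. It had 588, 397, 752 and 485 CPM in ISC and 293, 236, 453 and 447 CPM in PANETH. The 5 others not called against PANETH were Rpl41 (-0.18), Rpl36al (0.03), Rpl10 (0.04), Rps27rt (0.11) and Rps24 (0.35), named here after their values were seen, and the values near 0 change sign with the scaling or the adjustment for length.

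As means over libraries, the make-up of the family was therefore nearly, but not wholly, constant between types. Each member was expressed as percent of the UMIs on all members, and its highest type mean was divided by its lowest. This ratio had a median of 1.40 over 83 members, and it passed 2 for 8 of them. Rpl36al had the widest range (5.61, from 0.133% in EEC-PRE to 0.747% in GOBLET), followed by Rps19bp1 (3.70), Rps27l (3.15), Rpl41 (2.77) and Rpl7l1 (2.38). Of these, 2 rest in part on few UMIs in APC-KO replicate 1. Rpl7l1 had 9 there in NON-EC (0.106%) and 3 in EEC-PRE (0.00896%). In the other libraries it took 0.0434% to 0.0648% and 0.0286% to 0.0370%. Rps19bp1 had 6 UMIs in GOBLET and 2 in PANETH-PRE there. Rpl41, the shortest ribosomal protein, rose from 1.31% in EEC-PRE to 3.63% in GOBLET. At the other end, Rps10 ranged only from 1.40% in PANETH to 1.54% in ISC (ratio 1.10), and Rpl37, Rpl23a, Rpl23 and Rpl10a had ratios of 1.14 to 1.17. For Rps10 and Rpl37 the libraries varied more than the type means. Within ISC, Rps10 took 1.63%, 1.70%, 1.61% and 1.19%, and Rpl37 0.863%, 0.541%, 1.33% and 1.72%. Rps2 fell from 2.12% in ISC to 1.03% in GOBLET. By CPM, 61 of 83 members had their highest type mean in ISC, and 82 had their lowest in GOBLET.

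**Figure D3:**
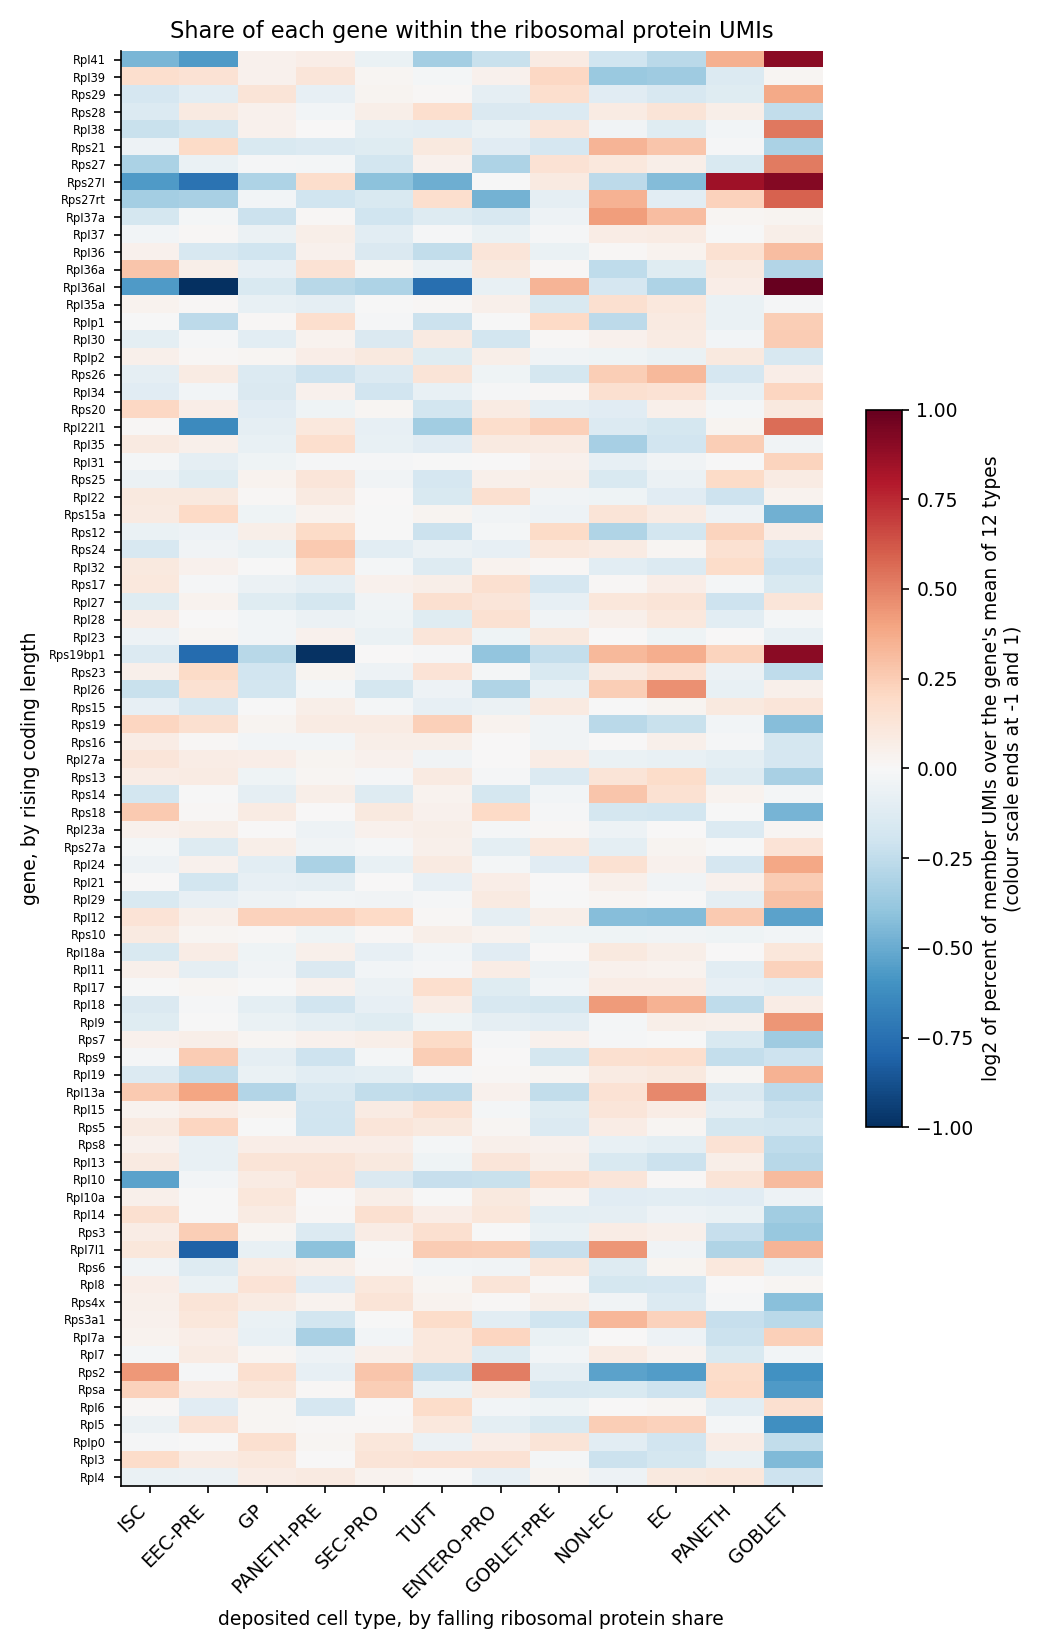
Ribosomal protein genes (82 rows, by coding length), each as its log2 share of the members' UMIs in each of the 12 types (columns, by falling total share), against its mean over types. Most rows stay near 0, and Rpl36al, Rps27l and Rpl41 are high in GOBLET.

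The annotated sequences of the paralogs that stood apart differ from those of their parents. The coding sequences of Rps27 and Rps27l and the first 120 coding bases of Rpl36a and Rpl36al are shown for this reason (GENCODE vM21, GRCm38, 5′ to 3′). Capitals mark the bases that differ within a pair, at 61 of 255 positions in the first and 39 of 321 over the whole second. The genes lie at chr3:90212522-90213651 (Rps27, minus strand), chr9:66946086-66949516 (Rps27l, plus strand), chrX:134585654-134588062 (Rpl36a, plus strand) and chr12:69182731-69184083 (Rpl36al, minus strand).
Rps27: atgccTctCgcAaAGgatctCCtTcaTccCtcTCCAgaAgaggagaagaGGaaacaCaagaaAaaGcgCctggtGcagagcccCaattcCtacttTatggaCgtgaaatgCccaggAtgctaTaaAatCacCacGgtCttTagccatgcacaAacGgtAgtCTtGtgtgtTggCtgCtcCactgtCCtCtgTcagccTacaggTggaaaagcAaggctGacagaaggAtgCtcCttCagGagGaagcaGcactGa
Rps27l: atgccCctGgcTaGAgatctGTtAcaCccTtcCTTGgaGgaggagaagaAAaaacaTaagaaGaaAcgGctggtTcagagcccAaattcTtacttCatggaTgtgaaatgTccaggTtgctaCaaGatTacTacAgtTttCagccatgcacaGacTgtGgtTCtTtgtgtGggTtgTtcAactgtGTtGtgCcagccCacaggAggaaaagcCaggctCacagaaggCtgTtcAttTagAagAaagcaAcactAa
Rpl36a: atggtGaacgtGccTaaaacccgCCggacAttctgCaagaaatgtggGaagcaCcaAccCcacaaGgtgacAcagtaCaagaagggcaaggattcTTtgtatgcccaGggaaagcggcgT
Rpl36al: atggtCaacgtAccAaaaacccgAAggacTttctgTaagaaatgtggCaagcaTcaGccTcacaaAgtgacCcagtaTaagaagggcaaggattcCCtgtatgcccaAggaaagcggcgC

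Over the whole annotated transcripts neither pair shared a stretch of 50 bases. Where the reads fall along them was not tested. Rps27rt is different, since its coding sequence equals that of Rps27 and 292 of the 296 windows of 50 bases in the Rps27 transcript recur in it. Reads of these 2 genes cannot be told apart with certainty, and their values are uncertain.

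Relative to its parent, Rpl36al was high in goblet cells and low in stem cells and enteroendocrine precursors. It took 57.9%, 72.9%, 75.7% and 46.8% of the UMIs of the pair in GOBLET, 24.7%, 28.0%, 23.4% and 18.9% in ISC and 20.7%, 23.1%, 18.6% and 20.2% in EEC-PRE. The GOBLET values lie above all ISC values, and the 2 WT libraries alone show the same order. In GOBLET of APC-KO replicate 1 the share rests on 78 and 25 UMIs, with an exact binomial interval of 66.3% to 83.6% for counting error. GOBLET-PRE (41.1%) and NON-EC (37.0%, means of 4) followed GOBLET.

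Rps27l took 44.6%, 50.2%, 34.3% and 20.8% of its pair in PANETH, 30.0%, 36.4%, 30.2% and 15% in GOBLET, 26.1%, 28.4%, 19.9% and 10.6% in ISC and 18.4%, 21.6%, 16.1% and 9.25% in EEC-PRE. Within each library the order PANETH, GOBLET, ISC, EEC-PRE held, while the level in APC-KO replicate 2 was below that of the other libraries in each of these types. Rpl22l1, a paralog of Rpl22, took a mean of 45.7% of its pair in GOBLET (38.0% to 52.5% over libraries) and was lowest in EEC-PRE (25.5%). Rpl7l1, which acts in ribosome assembly rather than in the ribosome, took between 2.26% and 5.11% of its pair with Rpl7 as type means. The annotated transcripts of a pair differ in length (345 bases in Rps27 and 499 in Rps27l, 483 in Rpl36a and 526 in Rpl36al), and the part of length in these percentages was not tested. The percentages of Rps27l also rest on the count of Rps27, which is uncertain because of Rps27rt, and the part of this was not tested.

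**Figure D4:**
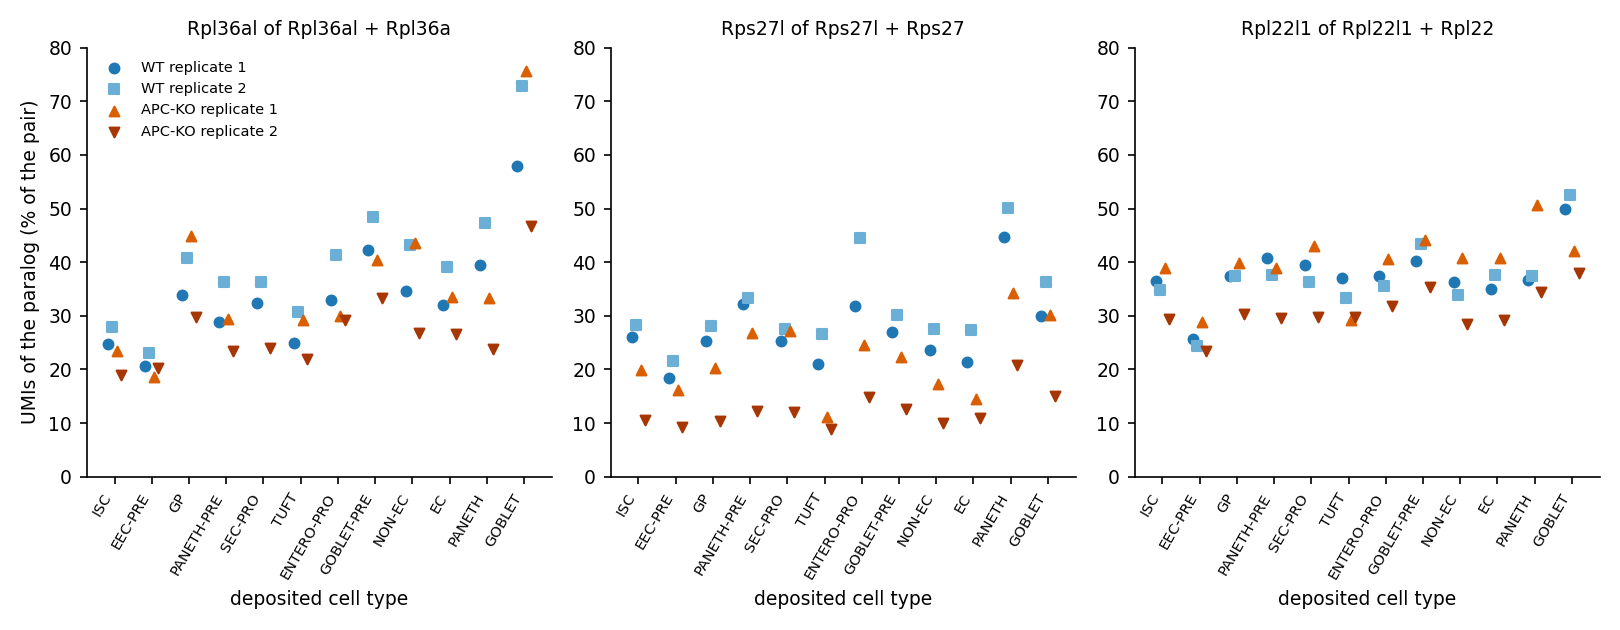
Percent of the UMIs of a paralog and its parent that fell on the paralog (vertical axis), by cell type, with 1 point per library. Rpl36al reaches 46.8% to 75.7% in GOBLET and Rps27l 20.8% to 50.2% in PANETH. The count of Rps27, the parent of Rps27l, is uncertain because of Rps27rt.

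The genotypes were compared next, which asks whether removal of Apc changes the family. In all cells together the members took 17.0%, 14.2%, 16.3% and 21.5% of the UMIs, and the genotypes overlap (two-sided exact permutation p = 0.667, where 0.333 is the smallest that 2 against 2 libraries can give). The mix of types differed between libraries, with 575, 228, 13 and 1245 ISC among 4814, 3821, 356 and 6243 cells, and its part in the values of all cells was not tested. Within types the APC-KO mean was higher in 12 of 12, and the libraries did not overlap in 8 of them, of which GP and TUFT have 7 and 8 cells in APC-KO replicate 1. PANETH showed the largest ratio, at 4.32% ± 0.395 in WT and 9.59% ± 2.67 in APC-KO (SD, n = 2 libraries each), a factor of 2.22. As the mean of the per-cell shares these were 4.78% and 14.4%, a factor of 3.01. In APC-KO replicate 1 the 16 PANETH cells had a median share of 19.9% against 7.70% in their sum, so that the value there depends on how the cells are weighted. ISC differed by 5.01 percentage points, EEC-PRE by 5.02, TUFT by 6.55, PANETH-PRE by 4.08, GP by 3.85, GOBLET-PRE by 3.31 and EC by 1.89. SEC-PRO, ENTERO-PRO, NON-EC and GOBLET overlapped.

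Libraries of 1 genotype differed too. In ISC the SD was 0.944 points in WT and 0.879 in APC-KO, beside a difference of 5.01 between genotypes. In GOBLET-PRE the SDs were 0.548 and 0.038, beside 3.31. In ENTERO-PRO they were 1.25 and 3.58, beside 0.789. WT replicate 1 was above WT replicate 2 in 12 of 12 types, and APC-KO replicate 1 above replicate 2 in 5. The share was then computed only from members with over 450 coding bases, again chosen once the values were known. The APC-KO mean was higher in 3 of 12 types. Both APC-KO libraries lay above both WT libraries in 1, PANETH, at 2.60% ± 0.0263 in WT and 4.64% ± 0.903 in APC-KO. They lay below both WT libraries in ENTERO-PRO, SEC-PRO, NON-EC and EC, with differences of -1.93, -1.51, -0.615 and -0.453 points. APC-KO replicate 1 held 11, 5, 13 and 45 cells of these types. In ISC the difference then was -0.348 points and in all cells -0.291. In PANETH other measures moved with the genotype. The Paneth markers had 405176, 388625, 320637 and 277060 CPM, the immune markers 113, 135, 271 and 366 CPM, and the median UMIs per cell were 12643.5, 10371.5, 3552 and 5954. Their part in the result was not tested.

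How a member stood in each library varied with its length. The shortest member, Rpl41, is shown by its coding sequence as an example of a short member (GENCODE vM21, GRCm38, 5′ to 3′, capitals mark the start and the stop codon). It lies at chr10:128548114-128549305 on the minus strand.
Rpl41: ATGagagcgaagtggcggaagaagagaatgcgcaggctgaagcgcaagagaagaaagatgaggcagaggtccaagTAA

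In the sums of all cells Rps29, a small-subunit protein that binds zinc, had 2263, 1354, 2586 and 8229 CPM, and Rpl41 had 2789, 1662, 2401 and 6268 CPM. Rpl38, a large-subunit protein known for a role in the patterning of the skeleton, had 1251, 712, 1555 and 3730 CPM. APC-KO replicate 2 was the highest and WT replicate 2 the lowest for each. For Rpl41, APC-KO replicate 1 lay below WT replicate 1, so that its groups overlap. Rps28 (711, 433, 575 and 2322 CPM) overlapped too, while Rps27 (1436, 822, 2211 and 3436 CPM) and Rpl39 (1340, 728, 1872 and 2826 CPM) did not. Long members were less uniform. Of the 42 with over 450 coding bases, 18 were highest in APC-KO replicate 2 and 17 in WT replicate 2. The lowest library was APC-KO replicate 1 for 23 of them and WT replicate 2 for 13. The examples that follow were highest in WT replicate 2. Rpl9, a large-subunit protein, had 2365, 2683, 1989 and 1713 CPM, Rps3, at the entry of the messenger RNA channel, 2477, 2851, 2181 and 2173 CPM, and Rplp0 3345, 3917, 3029 and 3383 CPM.

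The same trend separated libraries of 1 genotype. The log2 ratio of WT replicate 1 to WT replicate 2 had medians of 0.80, 0.58, 0.21 and -0.11 in members of at most 300, over 300 to 450, over 450 to 600 and over 600 coding bases, and the first was higher for 11 of 11, 30 of 30, 15 of 19 and 7 of 23. APC-KO replicate 2 against replicate 1 gave 1.01, 0.31, 0.19 and 0.29. Between genotypes, APC-KO replicate 1 against WT replicate 1 gave 0.31, 0.06, -0.17 and -0.23, and APC-KO replicate 2 against WT replicate 2 gave 2.11, 0.89, 0.17 and -0.07. Spearman's rho of the log2 ratio with coding length over 83 members was -0.89 for the WT libraries, -0.37 for the APC-KO libraries and between -0.86 and -0.65 for the 4 pairs across genotypes, as a description across genes, which are not independent. Within ISC the rho between the WT libraries was -0.92, within EC -0.89 and within GOBLET-PRE -0.90.

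Genes outside the family with transcripts of at most 500 bases behaved alike. Their median log2 ratio of WT replicate 1 to WT replicate 2 was 0.76 over 42 genes, of which 34 were higher, beside 0.73 for the 16 members of that length. With over 500 and up to 700 bases the medians were 0.34 for 103 other genes and 0.50 for 20 members. By coding length up to 300 bases the 139 other genes had a median of 0.23, and over all 2795 other genes the rho with coding length was 0.07. The members with at most 300 coding bases took 8.73%, 5.98%, 10.9% and 17.8% of the members' UMIs and those with over 600 took 30.1%, 37.7%, 26.8% and 25.3%. The part of RNA quality or library making was not tested.

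**Figure D5:**
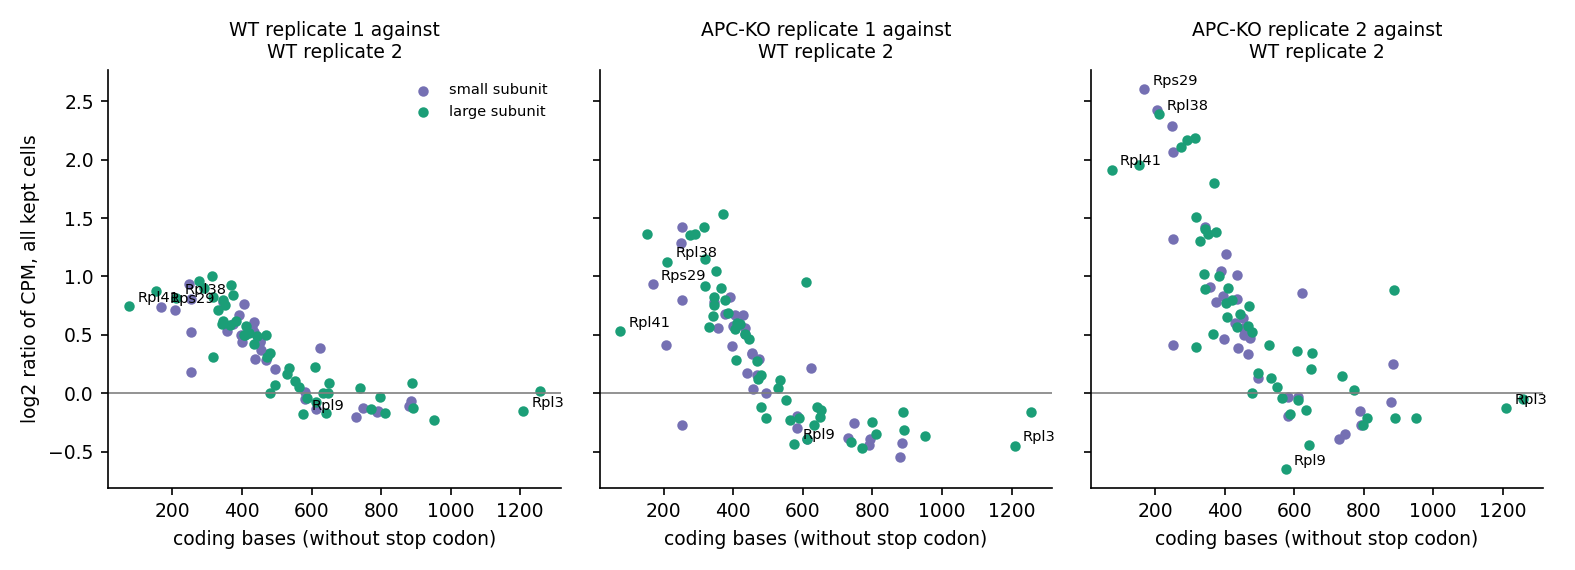
Log2 ratio of the CPM of 2 libraries (vertical axis) against the coding length of each ribosomal protein gene in bases (horizontal axis), for pairs of libraries within and between genotypes, with small- and large-subunit genes in different colours. The ratio of the 2 WT libraries falls with length, from a median of 0.80 to -0.11.

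In the edgeR comparison of the genotypes 0 of 83 members passed the threshold in all cells, EC, GOBLET, GOBLET-PRE or PANETH-LINEAGE, where 0%, 0%, 0.0837%, 0.00974% and 0.663% of all genes tested did. At an unadjusted p under 0.05 in edgeR, 11, 20, 13, 24 and 19 members were higher in APC-KO and 0, 0, 1, 0 and 0 lower, while 2.26%, 5.02%, 5.79%, 4.92% and 7.3% of all genes were higher. The DESeq2 Wald test called 1, 6, 0, 9 and 9 members, beside 0.172%, 0.729%, 0.1%, 0.37% and 6.37% of the genes it gave an adjusted p. The lowest adjusted p of a member in edgeR was 1, 0.329, 0.267, 0.493 and 0.115. Median log2 fold changes of the members were 0.39, 0.31, 0.13, 0.45 and 0.53, beside 0.01, -0.00, 0.01, -0.00 and 0.00 over all genes, and 61, 60, 59, 66 and 78 of 83 were positive. In GOBLET the median was -0.11 without WT replicate 2 and -0.29 without APC-KO replicate 2. Without WT replicate 1 the median was 0.55 in all cells, 0.60 in GOBLET-PRE and 0.77 in PANETH-LINEAGE. Without WT replicate 2 it was 0.18, 0.28 and 0.26 in the same sums.

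These differences fell with length. In all cells the bins of rising coding length had median log2 fold changes of 1.38, 0.55, 0.11 and -0.09, in EC 1.17, 0.47, 0.05 and -0.11, in GOBLET 1.06, 0.35, -0.07 and -0.06, and in GOBLET-PRE 1.38, 0.62, 0.18 and -0.01. In PANETH-LINEAGE the bins had 1.32, 0.64, 0.32 and 0.13, so that there the longest members were positive too. That sum joins 106, 200, 16 and 274 PANETH cells to 122, 98, 11 and 602 PANETH-PRE cells, whose shares were 6.96% and 21.4%, and the part of this mix was not tested. Scaling by library size alone moved the median of all genes in PANETH-LINEAGE to 0.68, that of the members to 1.09 and the split of called genes from 21 higher and 36 lower to 535 and 37, with 14 members called. The adjustment for transcript length gave medians of the members of 0.29, 0.14, 0.34, 0.33 and 0.24 in the 5 comparisons. It did not remove the trend with coding length. Spearman's rho of the members' log2 fold change with coding length was -0.88, -0.85, -0.74, -0.88 and -0.83 before it. After it the rho was -0.79, -0.76, -0.60, -0.78 and -0.63.

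Rps29 had the largest positive log2 fold change in each comparison, at 1.64 ± 0.59 (SE) in all cells, 1.57 ± 0.42 in EC, 1.6 ± 0.50 in GOBLET, 1.61 ± 0.46 in GOBLET-PRE and 1.66 ± 0.49 in PANETH-LINEAGE, and none passed (edgeR adjusted p from 0.142 in PANETH-LINEAGE to 1 in all cells). In PANETH its CPM were 624, 403, 1011 and 4036, and in GOBLET 693, 386, 744 and 2766, without overlap of the genotypes but with most of the gap in APC-KO replicate 2. Rpl38 or Rps27 or Rps28 came second, at 1.5 ± 0.49 for Rpl38 in all cells. Rpl9 had the largest negative value in each, from -0.76 ± 0.27 in GOBLET to -0.29 ± 0.29 in GOBLET-PRE, although in PANETH-LINEAGE its value of -0.32 turns positive with scaling by library size alone. Its CPM in GOBLET were 845, 845, 558 and 560, again with no overlap, and it did not pass (edgeR adjusted p = 0.327). Rps3 was second among the negative values in all cells (-0.20 ± 0.24) and in GOBLET (-0.60 ± 0.31).

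Counts of members whose libraries did not overlap had to be read against a shifted background. In all cells 27 members were higher in both APC-KO libraries than in both WT libraries, 26 of them with at most 450 coding bases, and 13 were lower, all longer, while 5.84% of 5719 genes were higher and 31.5% lower. In PANETH 82 of 83 members were higher and 0 lower, beside 53.9% and 2.44% of all genes, and in PANETH-LINEAGE 82 and 0, beside 57.3% and 2.39%. ISC had 39 higher and 7 lower (background 12.7% and 27.2%), GOBLET-PRE 43 and 0 (9.67% and 36.6%), EEC-PRE 41 and 0 (10.4% and 29.7%), and PANETH-PRE 46 and 5 (18.3% and 16.4%). ENTERO-PRO had 17 and 25 (14.5% and 20.5%), NON-EC 23 and 18 (14.8% and 24.9%), EC 34 and 13 (15.1% and 24.3%) and GOBLET 12 and 4 (31% and 15.2%).

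By role, no group of members had a member past the edgeR threshold between genotypes. Rplp1 (3524, 2341, 3713 and 4749 CPM in all cells) and Rplp2 (1958, 1127, 1996 and 2983 CPM), the short proteins of the P stalk, were highest in APC-KO replicate 2 and lowest in WT replicate 2, and their partner Rplp0, which is long, was highest in WT replicate 2. Rpl5 had 1734, 1898, 1525 and 1635 CPM and Rpl11 2090, 1803, 1946 and 1978 CPM, and their median log2 fold change was -0.00 in all cells and 0.25 in PANETH-LINEAGE. Rps6, the substrate of the S6 kinases, had 1675, 1823, 1524 and 1428 CPM, below WT in both APC-KO libraries. Rps19 had 2407, 1678, 2391 and 2942 CPM, and Rps19bp1 54.3, 51.1, 49.2 and 71.3 CPM, both with overlap. Of the companions, Fau had 2125, 1522, 1837 and 2976 CPM and Rack1, a small-subunit protein outside the symbols, 2041, 2256, 1733 and 2293 CPM, both with overlap.

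The pathway lists around the family had 0 genes past the threshold in these comparisons, except 1 of 16 p53 response genes, lower in PANETH-LINEAGE at a log2 fold change of -3.90. Biogenesis genes had medians of 0.13 in all cells, 0.13 in EC, 0.45 in GOBLET, 0.21 in GOBLET-PRE and 0.40 in PANETH-LINEAGE, and translation genes between -0.05 and 0.04. Mitochondrial ribosomal proteins had -0.00 in all cells, -0.03 in EC, -0.24 in GOBLET, 0.03 in GOBLET-PRE and 0.16 in PANETH-LINEAGE. Myc had a log2 fold change of -0.33 ± 0.20 in all cells, which did not pass.

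The start sites of the members share letters that the choice by symbol did not use. The table of RefSeq promoters (GRCm38.p6, 250 bases before to 50 after the start) held 66 of the 86 members and 27025 genes in all. The letters CCGGAAG, the core known from ETS-family factors, occurred on either strand in 26 members (39.4%) against 9.93% of all genes, and CGGAAGT, which overlaps with it, in 23 (34.8%) against 7.2%. A C at the annotated start followed by 5 pyrimidines occurred in 12 members (18.2%) against 2.05%. A run of at least 7 pyrimidines within 30 bases around the start occurred in 34 (51.5%) against 21.3%, and the longest run had a median of 7 against 5. CACGTG, the E-box bound by Myc, was in 6 (9.09%) against 8.09%, TATAA in 18 (27.3%) against 28.0%, TTCTTTT in 6 (9.09%) against 11.2%, each on either strand, and CTTTT at the start itself in 0 against 0.185%. Such matches describe letters in a window, not sites in use.

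Windows of 30 bases centred on the start are shown for 3 of the 5 longest runs and for the pairs that differ between cell types (5′ to 3′ on the strand of the gene, capitals mark the longest run of pyrimidines). The run is 21 bases in Rpl7a, 19 in Rpl27a, 18 in Rpl34, 9 in Rps27 and Rps27l and 5 in Rpl36a and Rpl36al. The windows are chr2:26910792-26910821 (plus), chr7:109519180-109519209 (plus), chr3:130730323-130730352 (minus), chr3:90213634-90213663 (minus), chr9:66946071-66946100 (plus), chrX:134585639-134585668 (plus) and chr12:69184053-69184082 (minus).
Rpl7a: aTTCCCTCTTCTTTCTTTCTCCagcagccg
Rpl27a: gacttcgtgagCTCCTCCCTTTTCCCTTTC
Rpl34: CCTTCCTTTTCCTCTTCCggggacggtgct
Rps27: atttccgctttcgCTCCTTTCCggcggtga
Rps27l: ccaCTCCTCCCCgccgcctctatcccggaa
Rpl36a: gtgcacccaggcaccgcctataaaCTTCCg
Rpl36al: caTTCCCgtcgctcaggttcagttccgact

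The ETS letters are shown in 4 members of known role (RefSeq, GRCm38.p6, gene strand, capitals mark CCGGAAG or its reverse complement). They begin 188 bases before the start in Rpsa (chr9:120127567-120127596, plus), 108 before it in Rplp2 (chr7:141447532-141447561, plus), 91 before it in Rps6 (chr4:86857440-86857469, minus) and at base 7 of the transcript in Rpl11 (chr4:136053369-136053398, minus).
Rpsa: cgccccagctaCTTCCGGcctggggtctgt
Rplp2: gaaatgtcttcCTTCCGGtgcacccttttc
Rps6: ttaatctacgcCCGGAAGtaacgcccctct
Rpl11: aggccacggggCCGGAAGtctccctctctc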

How the data were processed

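UMI counts per gene and barcode were deposited by the authors as unfiltered matrices of 10x Genomics 3' v3.1 libraries, made with Cell Ranger 3.0.2 and STAR on mm10 per the submitters' processing notes. The annotation release was not given in the sources used here. The authors' deposited tables hold counts of UMIs and genes per kept cell, the mitochondrial percent of its UMIs, and as other values its library and 1 of 12 cell type names. Kept cells had between 900 and 3000 genes and a mitochondrial percent below 7, as read from the tables. No doublet caller was run, and whether the authors ran any is not stated.

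UMIs of the kept cells were summed per library and per library and type (at least 10 cells for a sum in the tests, while shares used every sum, down to 5 SEC-PRO, 7 GP and 8 TUFT cells in APC-KO replicate 1). Sums were tested with edgeR 4.0.16 in R 4.3.3 (TMM, filterByExpr, quasi-likelihood test, Benjamini-Hochberg over all genes tested, threshold 0.05). The genotypes were fitted with 4 sums per fit, the types in 1 fit of 45 sums with the library as a block. Shares were compared with the two-sided exact permutation test. Alternatives used DESeq2 1.42.0, limma 3.58.1 on log2(CPM + 1), other scalings, filters and cell sets, and cells thinned to 2000 UMIs. An adjustment for transcript length took the trend of each sum on length over genes outside the family as an offset. The fits were tested on simulated data. Python 3.11.15, pandas 2.3.3 and scipy 1.17.1 made the tables. Coordinates came from GENCODE vM21 (GRCm38, which is mm10), matched by ID for 31011 of 31053 genes (99.9%) and 86 of 86 members.

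The members, gene lists and tests were chosen with earlier results of these data known. The genes named were Rpsa, the P-stalk genes, Rps6, Rpl5, Rpl11, Rps19, Rps19bp1 and the paralogs with their parents. Added to these were up to 5 members with the largest rise and fall per comparison (where none passed, the 2 largest of each sign), the 5 widest and 5 narrowest in composition, and those of highest CPM. Others were named as short or long examples after their values were seen. Some items are not reported here.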

Additional observations from a re-analysis of the deposited data

Results flagged for a closer look

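Only members named in this report are listed here. For 17 of them the 2 APC-KO libraries moved in opposite directions from the 2 WT libraries in different cell types, with no overlap in either type. The values are the difference between 2 types in the log2 ratio of APC-KO to WT mean CPM. The differences themselves were not tested, 9 types were compared, and APC-KO replicate 1 has 16 PANETH and 11 ENTERO-PRO cells. In 15 of these 17 members PANETH was higher and ENTERO-PRO lower in APC-KO. All 15 have over 450 coding bases.

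Among the large-subunit proteins these were Rpl5 (difference 1.27, from 0.90 in PANETH and -0.37 in ENTERO-PRO), Rpl7 (1.257), Rpl3 (1.226), Rpl11 (1.102), Rpl10a (1.098), Rpl19 (1.087), Rpl13 (1.081), Rpl10 (1.058) and Rplp0 (1.006). Among the small-subunit proteins they were Rps4x (1.283, from 0.80 and -0.48), Rps3a1 (1.25), Rps10 (1.234), Rps3 (1.076), Rps6 (0.9888) and Rps2 (0.9646). Rpl9 differed by 1.028 between PANETH (0.32) and NON-EC (-0.71), and Rpl12 by 0.8148 between PANETH (0.70) and ISC (-0.12). In PANETH 53.9% of all genes of at least 20 CPM were higher in both APC-KO libraries, and in ENTERO-PRO 20.5% were lower. Of all 83 members, 82 were higher in PANETH and 25 lower in ENTERO-PRO, so the members listed here are not all that show this pattern. How many of all genes moved in opposite directions in these types was not counted.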

How the results depend on the processing

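Of the values that answer a comparison, 386 kept direction and size under an alternative, 87 moved and 16 reversed. Of the single genes' alternatives, 3061 stayed, 29 fell below the threshold, 72 passed it and 8 reversed, and of 2060 alternatives of genes not called, 145 changed sign. Counts of genes called between genotypes moved most, and the causes were not tested.

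In all cells the count of 0 genes became 23 with the DESeq2 Wald test, 21 without a filter and 4 with the replicate block, and it ranged from 0 to 483 with 1 library left out (483 without APC-KO replicate 1, 18 without APC-KO replicate 2). Members called became 1 with DESeq2 and ranged from 0 to 4, and their median log2 fold change ranged from 0.18 to 0.55. In EC the 0 genes became 13 with DESeq2, 174 without a filter and 16 with thinned cells, and ranged from 0 to 405 (405 without APC-KO replicate 1, 102 without APC-KO replicate 2). Members became 6, 12 and 1 and ranged from 0 to 15 (15 and 9), and the median ranged from 0.10 to 0.46 and was 0.14 with the length adjustment.

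In GOBLET the 5 genes became 10 with library size only, 79 without a filter, 73 with the replicate block, 3 without mitochondrial and defensin genes and 3 with free RNA subtracted, and ranged from 0 to 21. Members became 6 without a filter and 3 with the replicate block, and ranged from 0 to 2. The median reached -0.29 and -0.11 without APC-KO replicate 2 and WT replicate 2 in turn, and 0.41 with the other APC-KO library left out. In GOBLET-PRE the 1 gene became 3 with library size only, 38 with DESeq2, 280 without a filter, 110 with the replicate block, 5 with thinned cells and 0 with free RNA subtracted, and ranged from 7 to 64. Members became 9 with DESeq2, 15 without a filter and 9 with the block, and ranged from 0 to 7. The median was 0.33 with library size only, 0.33 with the length adjustment, and ranged from 0.23 to 0.60. In PANETH-LINEAGE the 57 genes became 572 with library size only, 477 without a filter, 124 with the replicate block and 200 with the length adjustment, and ranged from 0 (without WT replicate 1) and 1 (without WT replicate 2) to 461 (without APC-KO replicate 1). Members became 14 with library size only, 9 with DESeq2 and 12 without a filter, and ranged from 0 to 7. The median was 1.09 with library size only, 0.24 with the length adjustment, and ranged from 0.26 to 0.77.

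Same-numbered libraries did not deviate together. The correlation of deviations over all genes was -0.25 in all cells and between -0.05 and 0.01 in the other sums. Over the members it was negative in each sum, between -0.42 and -0.31. These values gave no ground to pair libraries by number. Whether same-numbered libraries were processed together is not stated and was not tested, and calls under the block are no measure of strength. A crossed replicate block, added after the data had been seen, called 1 gene in all cells, 132 in EC, 2 in GOBLET, 1 in GOBLET-PRE and 49 in PANETH-LINEAGE, and 12 members in EC.

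For ISC against GOBLET the median of the members was 2.80 with library size only, and Rpl36al turned to 0.77. For ISC against PANETH the 5540 genes became 8663 with library size only and 3150 with thinned cells, and the median was 2.04 with library size only. The 78 members fell to 43 without WT replicate 1. Rps27l turned to 0.61 with library size only, and with the length adjustment Rpl36al became -0.42, Rps27rt -0.41, Rpl10 -0.34 and Rps27 -0.0373. For ISC against EC the median was 1.22 with DESeq2 size factors, 1.21 with the DESeq2 Wald test, 1.07 with library size only, 1.37 without mitochondrial and defensin genes and 0.62 with the length adjustment, and ranged from 1.05 to 1.32. With the length adjustment Rps27rt became -0.041 and Rps27 -0.066.

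Computed from members with over 450 coding bases, the difference in share between APC-KO and WT reversed to -0.291 points in all cells, -0.348 in ISC, -1.93 in ENTERO-PRO, -1.51 in SEC-PRO, -0.346 in GP, -0.0672 in GOBLET-PRE, -0.18 in PANETH-PRE, -0.122 in EEC-PRE, -0.615 in NON-EC and -0.453 in EC. ENTERO-PRO also gave -0.128 as the mean of per-cell shares, and with 1 library left out it ranged from -1.74 (without APC-KO replicate 2) to 3.32, at -0.0972 without WT replicate 2. GOBLET ranged from -0.161 (without APC-KO replicate 2) to 2.15. Depth limits APC-KO replicate 1 most, with 3009636 UMIs in kept cells.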

Other observations

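Many barcodes outside the deposited tables also hold ribosomal protein UMIs. Barcodes with at least 3000 genes numbered 1181, 1226, 1704 and 681 in WT replicate 1, WT replicate 2, APC-KO replicate 1 and APC-KO replicate 2, and the members took 21.2%, 19.2%, 20.6% and 23.3% of their UMIs. Their order among the libraries was the same as in the kept cells for the highest and the lowest library. Barcodes with fewer genes and at least 7% mitochondrial UMIs numbered 1574, 1862, 961 and 1643, and the members took 17.7%, 15.4%, 8.48% and 19.5%. APC-KO replicate 1 was the lowest there, with 26% mitochondrial UMIs against 9.70% to 12.3% in the other libraries.

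The small subunit took 40.8% of the members' UMIs in GOBLET as the mean of 4 libraries, the lowest of the 12 types. Rpl13a, which besides its place in the ribosome is known as a reference gene in expression studies, had 390, 415, 818 and 368 CPM in ISC and 40, 48, 188 and 119 CPM in PANETH. Its log2 fold change of 1.16 between these types was the largest of the members.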
